A study of Mus musculus with 6 samples.

Results

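The 9 genes described here, Csf1r, Spi1, Maf, Cebpa, Cebpb, Adgre1, Mertk, Fcgr1 and Cx3cr1, encode transcription factors and receptors that mark and maintain the macrophage. They were found by their symbols among the 35434 rows of the deposited expression table, and all 9 had a row and passed the filter that left 9800 genes to be tested. RNA came from bone marrow-derived macrophages (BMDMs), grown from femurs of C57BL/6 mice for 7 days with 10 ng/ml macrophage colony-stimulating factor (M-CSF), the cytokine that turns marrow precursors into macrophages. Ctrl libraries came from BMDMs without ZA, and ZA libraries from BMDMs taken 12 h after stimulation with ZA, the anti-resorptive bisphosphonate zoledronic acid. There were 3 libraries in each group, and both groups carried the same strain and culture conditions, with no transgene named. The study obtained its wild-type C57BL/6 mice as females at an age of 6 weeks, but the sources used here do not say at what age the marrow of these cultures was taken, from how many mice, or which ZA concentration these libraries had. The labels do not say whether replicates are separate cultures or mice, so the p-values measure only the spread between these samples, which may be technical.

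A macrophage keeps its identity through a small set of transcription factors that sit on many of the same enhancers. PU.1, encoded by Spi1, is the lineage factor of myeloid cells, and it acts with the C/EBP proteins (Cebpa, Cebpb) and with c-Maf (Maf). One of its best known targets is Csf1r, the receptor for M-CSF, on whose signal macrophages depend for survival. The other receptors are used to recognise and describe macrophages: Adgre1 encodes the F4/80 antigen, Mertk a receptor tyrosine kinase for the uptake of apoptotic cells, Fcgr1 the high-affinity IgG receptor CD64, and Cx3cr1 the receptor for fractalkine.

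Values are FPKM, fragments scaled by gene length and by the size of the library, so that levels can be compared between genes. The libraries held between 41230600 and 42155808 fragments. The members were far above the limit of detection, from at least 961 fragments in every library for Cx3cr1 to at least 123603 for Csf1r. Counting error, which leaves out every other source of error, was at most 3.23% of the value for Cx3cr1 and 0.284% for Csf1r. Markers of macrophages were abundant, with Ctrl means of 22500 ± 1970 FPKM for Lyz2 (lysozyme), 1330 ± 12.4 for Cd68 and 153 ± 2.6 for Itgam (SD, n = 3 each). None of these 3 passed the test between the groups, with adjusted p-values of 0.899, 0.736 and 0.691 (limma).

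In Ctrl BMDMs the order of the members was Csf1r, Adgre1, Spi1, Fcgr1, Maf, Cebpa, Cebpb, Mertk and Cx3cr1, by mean FPKM. Csf1r stood at place 57 of all 9800 genes tested and Adgre1 at place 98. Spi1, the most abundant of the factors, stood at place 222. Fcgr1 (561), Maf (636), Cebpa (642) and Cebpb (705) were close together, while Mertk (2330) and Cx3cr1 (5891) were much lower. The mean level of Csf1r was 119-fold that of Cx3cr1. Maf and Cebpa were the only neighbours in this order whose Ctrl libraries overlapped, with Maf between 83.3 and 94.8 FPKM and Cebpa between 85.4 and 87.8. The order was the same in ZA, where Cebpa and Cebpb were the neighbours that overlapped.

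ZA libraries held more Csf1r and Adgre1 mRNA than Ctrl libraries, by 8.12% and 9.17% of the Ctrl mean, and no library of one group reached the other. Spi1 was 4.24% higher with overlapping groups. The groups of the other 6 members overlapped, and none of the 9 passed an adjusted p-value of 0.05 (limma, with Benjamini-Hochberg adjustment over all genes tested). Of the 9 members, 3 had an unadjusted p under 0.05, against 12.3% of all genes tested, and all 3 were higher in ZA, against 7.50% of all genes. The groups did not overlap, with ZA higher, for 2 of 9, against 11.4% of all genes. An adjusted p under 0.05 was reached by 36 genes of 9800, or 0.367%.

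**Figure D1:**
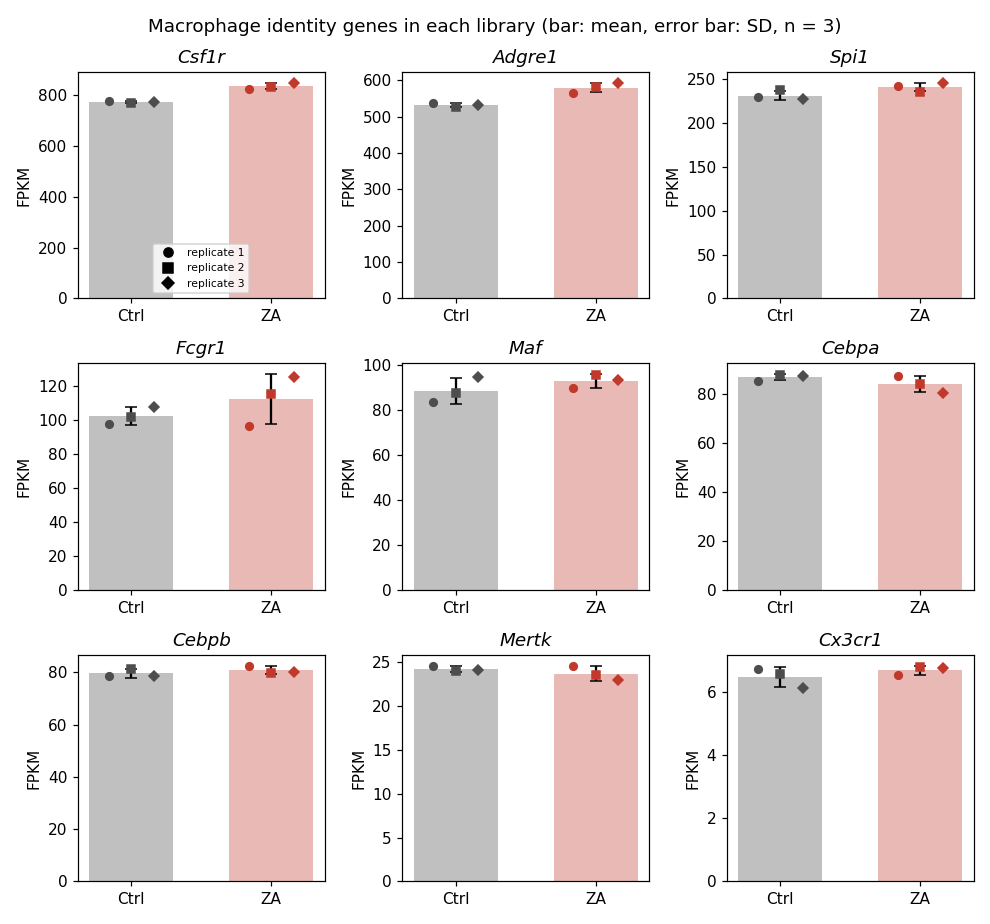
FPKM (y axis of each panel, starting at 0) of the 9 macrophage identity genes in the Ctrl and ZA groups. Points are single libraries, bars are means and error bars the SD (n = 3); the points of the groups are separate for Csf1r and Adgre1 and overlap for the other 7 genes.

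Csf1r, the M-CSF receptor, was at 777.1, 767.3 and 772.2 FPKM in Ctrl 1, 2 and 3, and at 824.8, 831.9 and 848 in ZA 1, 2 and 3. All ZA libraries lay above all Ctrl libraries, and the lowest ZA library was 47.7 FPKM above the highest Ctrl library. Ctrl libraries averaged 772 ± 4.93 and ZA libraries 835 ± 11.9 (SD, n = 3). Its log2 fold change was 0.11 ± 0.02 (SE), with a 95% interval of 0.07 to 0.16, an unadjusted p of 0.000373 and an adjusted p of 0.0701 (limma). The interval corresponds to a level between 4.82% and 11.5% higher on the FPKM + 1 scale. In bulk RNA, a change in the amount of mRNA per cell and a change in the share of cells that carry it cannot be told apart.

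Adgre1, which encodes the F4/80 surface antigen, was measured at 537.7, 525.8 and 531.8 FPKM in Ctrl and at 566.5, 581.8 and 593.3 in ZA. Here too the groups were separate, by 28.8 FPKM between the nearest libraries. Its mean went from 532 ± 5.93 to 581 ± 13.4 (SD, n = 3), a log2 fold change of 0.13 ± 0.02 (SE; 95% interval 0.07 to 0.18) with an adjusted p of 0.0785 (limma; unadjusted p 0.000532). For both genes the difference was several times the SD between libraries, which was 0.639% of the mean for Csf1r and 1.12% for Adgre1 in Ctrl, and 1.42% and 2.31% in ZA.

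The calls for these 2 receptors depended on the test. With voom, limma's count model, on the fragments recovered from the FPKM values, adjusted p-values were 0.00878 for Csf1r and 0.0114 for Adgre1. That test called 2 of the 9 members, against 1.35% of all genes (132 of 9800). Over all alternatives the adjusted p of Csf1r lay between 0.00878 and 0.272 and that of Adgre1 between 0.0114 and 0.287, and both log2 fold changes stayed positive, from 0.08 to 0.12 and from 0.1 to 0.14.

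A ratio of genes within a library does not depend on how libraries are scaled. Csf1r over Mertk was 31.6, 32 and 32.1 in Ctrl against 33.5, 35.5 and 36.8 in ZA. Adgre1 over Mertk was 21.9, 21.9 and 22.1 in Ctrl against 23, 24.8 and 25.8 in ZA. Both ratios were higher in every ZA library than in any Ctrl library. Mertk itself had a lower mean in ZA, which raises both ratios there, and the ratios were not tested. By contrast Adgre1 over Csf1r lay between 0.685 and 0.692 in Ctrl and between 0.687 and 0.7 in ZA, and these ranges overlapped.

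**Figure D2:**
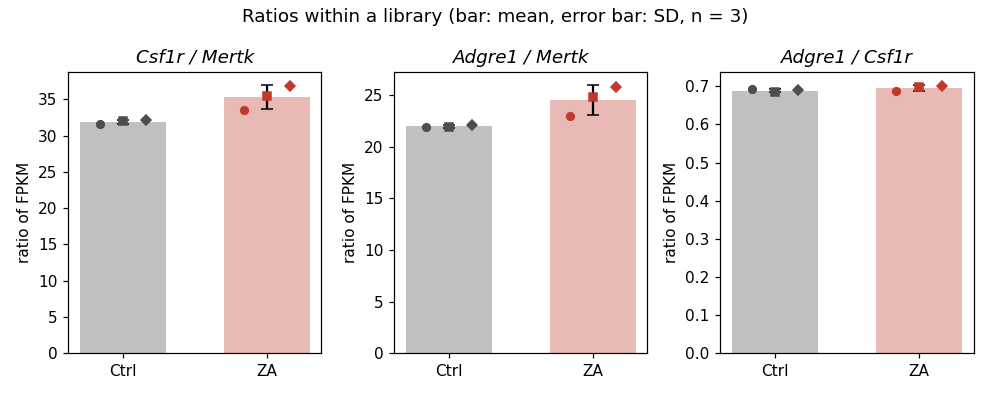
Ratio of FPKM values of 2 genes within the same library (y axes, starting at 0) in the Ctrl and ZA groups, with points for libraries, bars for means and error bars for the SD (n = 3). Csf1r / Mertk and Adgre1 / Mertk are separate between the groups, at means of 31.9 and 35.3, and of 22 and 24.5, whereas Adgre1 / Csf1r overlaps at 0.689 and 0.695.

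Among the 4 transcription factors, Spi1 (PU.1) was at 229.2, 237.4 and 227.7 FPKM in Ctrl and at 242.7, 235.8 and 245.2 in ZA. ZA 1 and ZA 3 lay above every Ctrl library, and ZA 2 lay 1.59 FPKM below Ctrl 2. The log2 fold change was 0.06 ± 0.03 (SE), with an unadjusted p of 0.0453 and an adjusted p of 0.394 (limma). Without Ctrl 1, Ctrl 3, ZA 1 or ZA 3 the unadjusted p was 0.115, 0.143, 0.0921 or 0.127, and after centring of the libraries on their median it was 0.0868. The ratio of Csf1r to Spi1, the receptor over its regulator, was 3.39, 3.23 and 3.39 in Ctrl against 3.4, 3.53 and 3.46 in ZA, separate by far less than the spread of either group.

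Maf, the factor linked to the mature, self-renewing state of tissue macrophages, was at 83.3, 87.3 and 94.8 FPKM in Ctrl and at 89.6, 95.6 and 93.3 in ZA. The ZA libraries lay mostly within the Ctrl range. Its log2 fold change was 0.07 ± 0.05 (SE; 95% interval -0.04 to 0.18; limma adjusted p 0.582), and it lay between 0.03 and 0.12 when single libraries were left out.

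Neither C/EBP factor passed the test. Cebpa, which is needed for commitment to the myeloid lineage, was at 85.4, 87.8 and 87.3 FPKM in Ctrl and at 87.5, 84.1 and 80.6 in ZA. ZA 2 and ZA 3 lay below every Ctrl library, and ZA 1 lay among them. The log2 fold change was -0.05 ± 0.03 (SE; limma adjusted p 0.591). Cebpb, which takes part in inflammatory gene expression, was at 78.6, 81.4 and 78.8 FPKM in Ctrl and at 82.6, 79.9 and 80.2 in ZA. Its groups overlapped and its interval was narrow, with a log2 fold change of 0.02 and a 95% interval of -0.03 to 0.08 (adjusted p 0.751). The ratio of Cebpa to Cebpb was 1.09, 1.08 and 1.11 in Ctrl against 1.06, 1.05 and 1.01 in ZA, lower in every ZA library.

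Of the other receptors, Mertk was at 24.6, 24 and 24.1 FPKM in Ctrl and at 24.6, 23.5 and 23 in ZA. ZA 2 and ZA 3 lay below the Ctrl libraries, and ZA 1 lay just above the highest of them. Its log2 fold change was -0.03 ± 0.03 (SE), with a 95% interval of -0.1 to 0.04 and an adjusted p of 0.744 (limma). Cx3cr1, the lowest member, was at 6.73, 6.58 and 6.13 FPKM in Ctrl and at 6.53, 6.78 and 6.77 in ZA. These groups overlapped, at a log2 fold change of 0.04 ± 0.04 (SE; 95% interval -0.05 to 0.14; adjusted p 0.729).

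Fcgr1 (CD64) was the most variable member. Its promoter is known to be bound by PU.1, the product of Spi1, and is shown here with a match to the PU.1 motif. The 250 bases before the start of Fcgr1 on the minus strand of chr3:96293970-96294219 (RefSeq, GRCm38.p6), written 5′ to 3′ along the gene, hold in capitals a match to the PU.1 core GAGGAA on the opposite strand, from 55 to 50 bases before the start.
Fcgr1 promoter: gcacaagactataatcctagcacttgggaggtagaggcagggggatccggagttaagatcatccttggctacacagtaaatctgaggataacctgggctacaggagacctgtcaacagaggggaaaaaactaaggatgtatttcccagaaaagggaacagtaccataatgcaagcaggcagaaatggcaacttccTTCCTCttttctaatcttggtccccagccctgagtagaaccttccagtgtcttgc

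Both strands were searched. Of 32851 promoters of the same length, 23.3% hold this motif. Of the 9 members, 5 have a promoter in the table used, and in those of Cebpa, Cebpb, Mertk and Cx3cr1 neither this motif nor the C/EBP motif TTGCNNAA, present in 9.56% of promoters, was found in the 250 bases. The 250 bases of Mertk end at 128698914 on chromosome 2, while the GENCODE annotation starts the gene at 128698956. The bases before that later start were not searched in full. A match of letters is a description and not a measured binding site, and the genome build named by the submitters' processing notes, mm9, is an older one than that of the sequence.

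Fcgr1 was at 97.5, 101.5 and 107.7 FPKM in Ctrl and at 96.6, 115.3 and 125.2 in ZA. ZA 2 and ZA 3 were the highest libraries and ZA 1 was the lowest of all 6. The SD was 5.02% of the mean in Ctrl and 12.9% in ZA, against a counting error of 0.985%, so the spread was many times what counting alone gives. Its log2 fold change of 0.13 ± 0.08 (SE), close to that of Csf1r and Adgre1 in size, had a 95% interval of -0.07 to 0.32 and an adjusted p of 0.575 (limma). Without ZA 1 it was 0.23 and without ZA 3 it was 0.05, with adjusted p-values of 0.0992 and 0.875. In both groups the values of Fcgr1 rose with the replicate number. A fit with a term for replicate number gave it an SE of 0.0437 and an adjusted p of 0.23 (limma).

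Taking the 9 members as a list, 7 had a higher and 2 a lower mean in ZA. Of all genes tested, 56.9% had a higher mean in ZA, and 48.4% after centring on the median. The median log2 fold change of the members was 0.06 beside 0.01 over all genes tested. The scaling of the libraries bears on the sign of small differences: 735 genes with an unadjusted p under 0.05 were higher and 475 lower in ZA as deposited, and 508 and 664 after centring on the median. No member changed sign under any of the 14 alternatives. Some of these, namely the filters, the variance trend and a term for replicate number, cannot change a log2 fold change here.

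**Figure D3:**
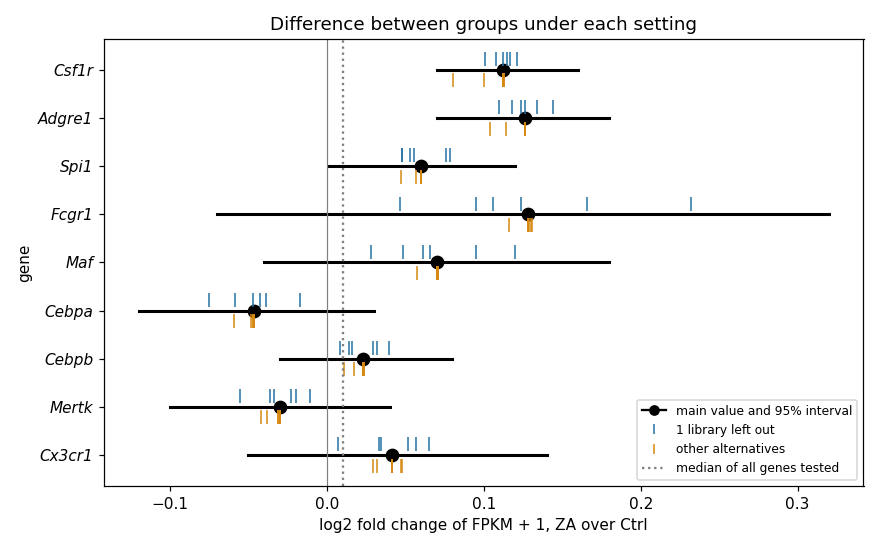
Log2 fold change of FPKM + 1, ZA over Ctrl (x axis), for each member (y axis). Black points and bars are the values and 95% intervals, blue ticks leave out 1 library, orange ticks are the other alternatives, and the dotted line is the median of all genes tested; the intervals of Csf1r and Adgre1 lie well above 0, that of Spi1 reaches down to nearly 0, and those of the other 6 genes include it.

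Related genes were followed in 7 further lists, of which 95 genes were tested, 21 (22.1%) had an unadjusted p under 0.05, against 12.3% of all genes, and 1 an adjusted p under 0.05, against 0.367%. Of the 21, 10 were higher and 11 lower in ZA, where 7.50% and 4.85% of all genes were, and these shares are the background of each list's counts given next. Without ZA 1 the 10 became 16. Their median log2 fold change was 0.00342. In the list of CSF1R ligands, related cytokine receptors and signalling, 19 genes were tested. At an unadjusted p under 0.05, 3 of them were higher and 2 lower in ZA. The ligand gene Csf1 (M-CSF) was at 6.09, 5.66 and 4.52 FPKM in Ctrl and at 4.42, 4.28 and 3.71 in ZA, a log2 fold change of -0.32 ± 0.09 (SE; limma adjusted p 0.241). Ligand and receptor thus lay in opposite directions, each with separate groups, and Csf1r over Csf1 was between 128 and 171 in Ctrl and between 187 and 229 in ZA. The phosphatase gene Ptpn6 (0.11, adjusted p 0.243) and Plcg2 (0.1, adjusted p 0.304) were higher, and the adaptor gene Dok2 (-0.14, adjusted p 0.203) was lower.

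Among 19 tested genes of other myeloid transcription factors, 1 was higher and 1 lower at an unadjusted p under 0.05. Cebpd, a C/EBP family member, was at 10.1, 9.77 and 10.2 FPKM in Ctrl and at 12.1, 11.9 and 14.1 in ZA (log2 fold change 0.31 ± 0.06 SE, limma adjusted p 0.0895). Every ZA library was above every Ctrl library, which was not so for Cebpa or Cebpb. Pparg, a nuclear receptor of lipid-handling macrophages, was lower, at a log2 fold change of -0.1 ± 0.03 (adjusted p 0.284).

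Around Mertk, the list of TAM receptors, their ligands and engulfment genes held 13 tested genes, 2 higher and 2 lower at an unadjusted p under 0.05, or 2 in all without Ctrl 1. Gas6, a ligand of Mertk, had a log2 fold change of 0.08 (adjusted p 0.292), and the sheddase gene Adam17 one of 0.09 (adjusted p 0.203). The bridging protein gene Mfge8 (-0.17, adjusted p 0.341) and the cholesterol exporter gene Abca1 (-0.15, adjusted p 0.17) were lower. Around Fcgr1, none of the 9 tested genes of Fc receptors and their proximal signalling had an unadjusted p under 0.05 (limma). The largest moderated statistics were those of Fcgr4 (-0.09, adjusted p 0.467), Lat2 (-0.05, adjusted p 0.55) and Fcgrt (0.06, adjusted p 0.557).

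Around Cx3cr1, the list of chemokine receptors and the fractalkine axis held 9 tested genes. At an unadjusted p under 0.05, 2 were higher and 2 lower in ZA, or 2 in all without ZA 2 or without ZA 3. Ccr2, the receptor of inflammatory monocytes, was at 6.15, 5.39 and 5.26 FPKM in Ctrl and at 6.96, 7.04 and 6.79 in ZA (log2 fold change 0.27 ± 0.05 SE, limma adjusted p 0.0948). Its groups were separate, whereas those of Cx3cr1 overlapped. Gnai2 (0.06, adjusted p 0.373) was higher, and Ccrl2 (-0.12, adjusted p 0.232) and Ccr1 (-0.13, adjusted p 0.373) were lower. The 3 tested adhesion G protein-coupled receptor genes beside Adgre1, namely Adgrl2 (0.04), Adgre4 (0.08) and Adgre5 (-0.02), all had adjusted p-values of at least 0.713.

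Of 23 tested genes in the list of other macrophage markers, 2 were higher and 4 lower at an unadjusted p under 0.05, and these 6 became 3 without Ctrl 2 and 10 without ZA 1. Lpl, lipoprotein lipase, fell from 852, 844 and 859 FPKM in Ctrl to 786, 776 and 760 in ZA, and it was the 1 gene of these lists past an adjusted p of 0.05 (log2 fold change -0.14 ± 0.02 SE, limma adjusted p 0.0487). Its adjusted p lay between 0.00332 and 0.228 over the alternatives. Trf (-0.16, adjusted p 0.063), Clec7a (-0.12, adjusted p 0.0942) and Lgmn (-0.05, adjusted p 0.369) were lower with separate groups. The complement gene C1qa (0.1, adjusted p 0.278) and the endotoxin co-receptor gene Cd14 (0.12, adjusted p 0.332) were higher with separate groups. By mean alone, 17 of the 23 were higher and 6 lower in ZA, where 56.9% of all genes tested were higher. Genes that describe the macrophage thus did not all lie in 1 direction.

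**Figure D4:**
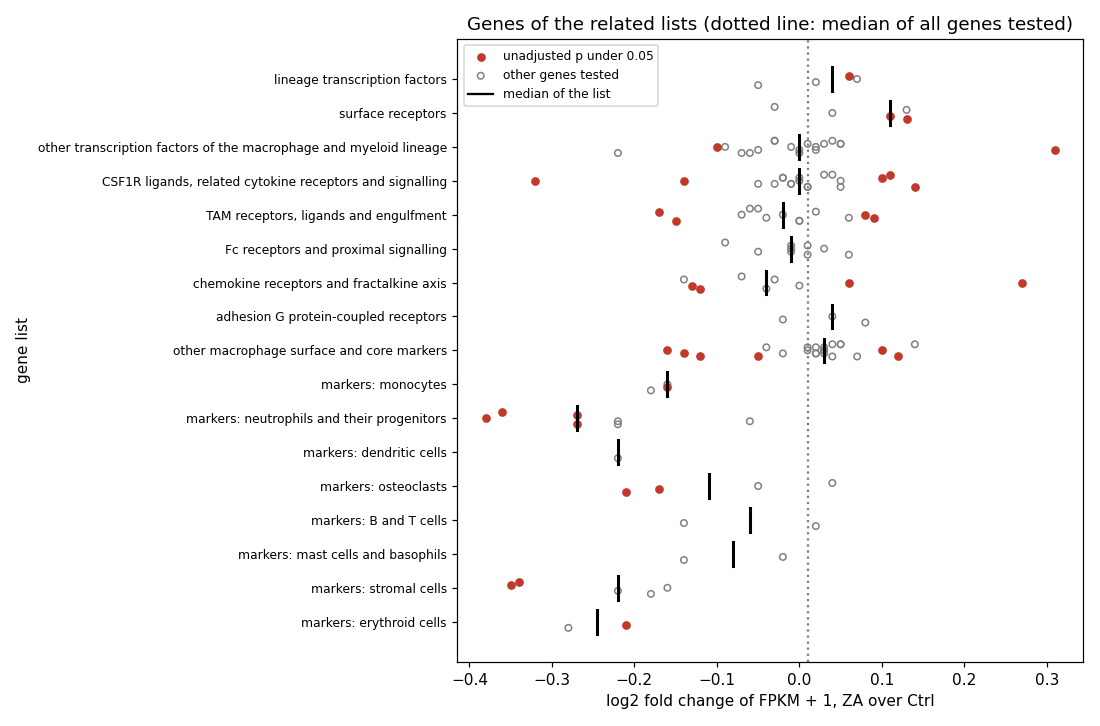
Log2 fold change of FPKM + 1, ZA over Ctrl (x axis), of each gene tested in the lists of related genes and of markers of other cell types (y axis). Red points have an unadjusted p under 0.05, open points do not, black bars are list medians and the dotted line is the median of all genes tested; points of the macrophage lists lie on either side of 0, and 24 of 26 marker genes of other cell types lie below it.

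Most markers of other cells of the marrow had a lower mean in ZA. Of 75 genes in 8 marker lists, 26 were expressed enough to be tested. Of these, 24 had a lower and 2 a higher mean in ZA, where 56.9% of all genes tested had a higher mean. At an unadjusted p under 0.05, 10 were lower, against 4.85% of all genes. Without Ctrl 3 these 10 became 16, and without ZA 3 they became 6. With a filter at a mean FPKM of 5, which tests fewer genes, they became 5. Those of the neutrophil and progenitor list went from 4 to 0 with that filter. None passed an adjusted p of 0.05 (limma). The median log2 fold change of the marker genes was -0.19. Log2 fold changes of the main test are of FPKM + 1, and the added 1 makes them smaller for genes at a few FPKM. Their sizes are therefore not comparable with those of abundant genes such as Csf1r. In the neutrophil and progenitor list, all 7 tested genes were lower, and Prtn3 was at 2.14, 2.47 and 2.14 FPKM in Ctrl and at 1.67, 1.53 and 1.39 in ZA (log2 fold change -0.36 ± 0.06 SE, adjusted p 0.0742). Mpo (-0.38, adjusted p 0.11), Elane (-0.27, adjusted p 0.11) and Ngp (-0.27, adjusted p 0.36) also had separate groups, and Ly6g, the defining surface marker of neutrophils, was listed at 0 in every library. Fragments per library were few, from 57 to 100 for Prtn3, 66 to 97 for Elane, 159 to 262 for Ngp and 162 to 280 for Mpo.

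The summed FPKM of the neutrophil list, led by S100a9, was between 37.7 and 53.4 in Ctrl and between 33.5 and 39.2 in ZA. That of the monocyte list, led by Chil3 and F13a1 (-0.16, adjusted p 0.265), was between 24.8 and 28.5 in Ctrl and between 22.1 and 25.6 in ZA. The stromal list, led by Dcn (-0.34, adjusted p 0.398) and with Cxcl12 also lower (-0.35, adjusted p 0.341), gave 20.3 to 36.6 in Ctrl and 18.1 to 26 in ZA. Osteoclast markers gave 194 to 214 in Ctrl and 172 to 195 in ZA, led by the proton pump gene Atp6v0d2 (-0.17, adjusted p 0.265), with Acp5 lower as well (-0.21, adjusted p 0.332). The other tested osteoclast markers were Ctsk (-0.05, adjusted p 0.726) and Nfatc1 (0.04, adjusted p 0.725; limma), the latter with a higher mean in ZA. The erythroid list was mostly Tfrc (-0.21, adjusted p 0.0938), the transferrin receptor gene that many cell types express, and gave 70.4 to 72.2 in Ctrl and 57.6 to 65.2 in ZA. Dendritic cell markers gave 2.81 to 4.09 in Ctrl and 2.43 to 3.41 in ZA. B and T cell markers gave 11.4 to 11.6 and 10.5 to 12.1, and markers of mast cells and basophils 3.89 to 4.48 and 3.48 to 4.18. The tested genes of these last lists, Fscn1 (-0.22), Cd79b (-0.14), Cd4 (0.02), Gata1 (-0.14) and Kit (-0.02), had adjusted p-values of at least 0.55. Mcpt4 and Tpsb2 were listed at 0 throughout. Only the erythroid sum was separate between the groups, and the sums of all the other marker lists overlapped. Sums of chosen markers do not measure the share of other cells in the cultures. The part of other cells in the higher Csf1r and Adgre1 was not tested.

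The genes tested whose profile over the 6 libraries was closest to that of Csf1r, by the root mean square difference of centred log2(FPKM + 1) values, were Ncf1 (0.00872), Hsdl2 (0.0107) and Pgam5 (0.0116), where the profile of Csf1r itself had a root mean square of 0.0577. Ncf1, a cytosolic subunit of the phagocyte NADPH oxidase, was at 167, 166 and 165 FPKM in Ctrl and at 177, 179 and 185 in ZA (log2 fold change 0.12, limma adjusted p 0.0884). Hsdl2 and Pgam5 had log2 fold changes of 0.1 (adjusted p 0.262) and 0.13 (adjusted p 0.131).

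Some members share exon bases with a neighbour on the opposite strand in the GENCODE annotation of GRCm38, and the strand setting of the counting was not given in the sources used here. Csf1r, on chromosome 18, shares up to 873 bases in an exon with Hmgxb3, whose mean was 5.91 FPKM. Cebpb shares up to 312 bases with Tmem189, and Maf (401), Cebpa (51) and Cx3cr1 (78) overlap antisense genes. The reads of such stretches cannot be assigned to a gene without strand. Spi1, Adgre1, Mertk and Fcgr1 share no exon bases with another gene.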

How the data were processed

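The authors deposited 1 table of FPKM values (fragments scaled by gene length and by the library's total), with a value per gene and library and no further scaling. The labels name a VAHTS and a SMARTER library kit; reads were 150 bp pairs, and the submitters' processing notes name the build mm9. The aligner and counting tool were not given in the sources used here. All but 11 of the 35434 rows lack separators between the symbol and the values. Possible readings were listed from the digits, and the reading was kept whose values best gave whole fragments for a single gene length (20 to 250000 bases) and the library totals, ahead of the next by 3 powers of 10. This restored 35207 rows, 227 were left out, the 11 intact rows came out identically, and 2000 of 2000 simulated rows were exact.

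Log2(FPKM + 1) of genes whose mean FPKM reached 1 was compared with limma 3.58.1 in R 4.3.3 (lmFit, eBayes with a trend, two-sided), with Benjamini-Hochberg adjustment. All 6 libraries entered, grouped by the sample labels, and all columns were used. It was tested on simulated data with 200 of 9800 genes changed 2-fold, of which 99% were called beside 9 unchanged genes; smaller changes were not simulated. The members and gene lists were chosen with earlier results of these data known. Named are all members, the genes of each list with an unadjusted p under 0.05 (at most 6 by moderated statistic, otherwise the first 3), the most abundant markers, and the 3 profiles nearest to that of the member with the largest moderated statistic; some genes under this rule are left out of the text. Levels of the Ctrl and ZA groups are means ± SD. Promoters came from RefSeq, GRCm38.p6. Alternatives were a pseudocount of 0.1, no filter, a mean FPKM of 5, median centring, quantile normalization, no variance trend, a replicate block, leaving out each library, and voom on recovered fragments. Python 3.11.15, NumPy 2.4.6, pandas 2.3.3 and Matplotlib 3.10.9 were used. Libraries of a group were no duplicates, with a chi-square per gene of 3.52 to 9.73.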

Additional observations from a re-analysis of the deposited data

How the results depend on the processing

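The filters, the variance trend and, with equal groups, the replicate block cannot change a log2 fold change, so their values were fixed in advance. Over 14 alternatives, these included, the log2 fold changes of the 9 members kept their direction in all 126 values. Of the 126, 124 kept their side of an adjusted p of 0.05. The exceptions were Csf1r (0.11) and Adgre1 (0.13) with voom on recovered fragments, where 2 members passed against 0 otherwise. The number of all genes past the threshold, 36, was 1 without a filter, 20 with quantile normalization, 1 without a variance trend and 132 with voom. When 1 library was left out it lay between 0 and 25, with 1 without Ctrl 1 or Ctrl 2, 6 without Ctrl 3, 0 without ZA 2 and 4 without ZA 3. Over the other gene lists, the 1 gene past it (Lpl) became 0 without a filter, with quantile normalization or without a trend, 2 with a mean FPKM of at least 5 and 8 with voom, and lay between 0 and 3 when single libraries were left out. Deviations of libraries with the same replicate number correlated at 0.284, 0.0393 and 0.28, which does not settle whether the numbers pair the samples. The labels name no shared animal or batch, so the main fit took the samples as unpaired. A fit with the replicate block gave 78 genes, of which 4 were in the other lists (Csf1, Cebpd, Mfge8 and Lpl, with adjusted p-values of 0.0436, 0.044, 0.0417 and 0.0431) and 0 were members; at an unadjusted p under 0.05 it held 3 members, with Fcgr1 (0.0226) in and Spi1 (0.0622) out. Of 210 recomputed counts per list at an unadjusted p under 0.05, 177 were within 1.5 times and 33 moved. With 3 libraries a group and unknown independence, differences of a few percent, as for most members, could not be separated from the spread.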

Other observations

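The spread of Fcgr1 over the libraries was looked at further because it was the widest of the members, a choice made after its values were seen. By the same measure as for Csf1r, the profiles nearest to that of Fcgr1 among the 9799 other genes tested were those of Ifitm3 (0.0249), Dnph1 (0.0287) and Tor3a (0.0308), where the profile of Fcgr1 itself had a root mean square of 0.133. Ifitm3 and Tor3a are known as genes that interferons induce. Ifitm3 was at 624, 636 and 652 FPKM in Ctrl and at 609, 729 and 793 in ZA, so that, as for Fcgr1, ZA 1 was the lowest library of all 6 and ZA 2 and ZA 3 the highest. Tor3a was at 38.8, 41.3 and 43.7 FPKM in Ctrl and at 40.8, 46.2 and 49.7 in ZA, with ZA 1 within the Ctrl range. None of these 3 genes differed between the groups at an adjusted p under 0.05 (limma; 0.502, 0.682 and 0.475). These values describe the libraries and were not tested.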
